A study of Mus musculus with 15 samples.

Results

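Lipogenesis genes were examined in whole mouse lung after bleomycin, which breaks DNA and leads to lung scarring. The set was chosen by gene symbol and held 8 of the 33340 genes in the count table: Srebf1, Acly, Me1, Acaca, Fasn, Elovl6, Scd1 and Scd2. All 8 were matched by Ensembl identifier and passed the filter on low counts. RNA-seq of polyadenylated RNA was performed on 15 libraries from C57BL/6 mice, with 4 libraries each at days 0, 7 and 14 and 3 at day 21. Mice received a single intratracheal dose of bleomycin at 5 U/kg, and day 0 libraries carried the treatment label none. Day 0 replicate 4 was an exception, since its title named a control and its treatment label named the drug. It was kept at day 0 by its title. No genotype other than the strain was labelled, and the labels gave no age or sex. The study's methods describe young adult male mice for this model. Whether each library came from 1 animal or a pool was not given in the sources used here, so p-values measure the spread between libraries, which may in part be technical.

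De novo lipogenesis turns cytosolic acetyl-CoA into long-chain fatty acids. Citrate is cleaved to acetyl-CoA, acetyl-CoA is carboxylated to malonyl-CoA, fatty acid synthase joins these units into palmitate with NADPH as the reductant, and elongases and desaturases lengthen the chain and add a double bond. In the lung, alveolar type 2 epithelial cells use the pathway for surfactant phospholipid, and lipofibroblasts and adipocytes also run it.

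Total counts ranged from 15652008 to 18020661 per library, and replicates of a day differed beyond counting noise. Counts of the 16 mitochondrial genes made up 2.03% to 2.15% of each library at day 7, against 2.28% to 4.22% at day 0, 2.102% to 4.14% at day 14 and 2.66% to 4.01% at day 21. CPM gives a gene's count after its library's total count, scaled with TMM, is set to the same fixed value in all libraries. Cfd, an adipocyte gene, exceeded 20 CPM in 3 libraries, which were day 0 replicates 3 and 4 and day 7 replicate 4. Tissue identity was checked with surfactant genes, and Sftpc, the surfactant protein C gene, was present in every library at 2213 CPM or more.

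Per kilobase of exon (RPKM), the members kept a broad order of level on every day. Scd1 had the highest mean, with 334 ± 85.0 RPKM at day 0 (SD, n = 4), followed by Scd2 with 187 RPKM. Acly and Fasn lay next at 50.6 and 50.0 RPKM, and their libraries overlapped on all 4 days. Srebf1 and Me1 followed at 23.3 and 22.8 RPKM and overlapped at days 0 and 21, while Me1 lay above Srebf1 in all libraries at days 7 and 14. Acaca at 4.45 RPKM and Elovl6 at 1.27 RPKM stood last, with no overlap with their neighbours at day 0. At day 14 Acly and Me1 also overlapped, and at day 21 the overlap extended to Scd1 with Scd2 and to Fasn with Me1.

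**Figure D1:**
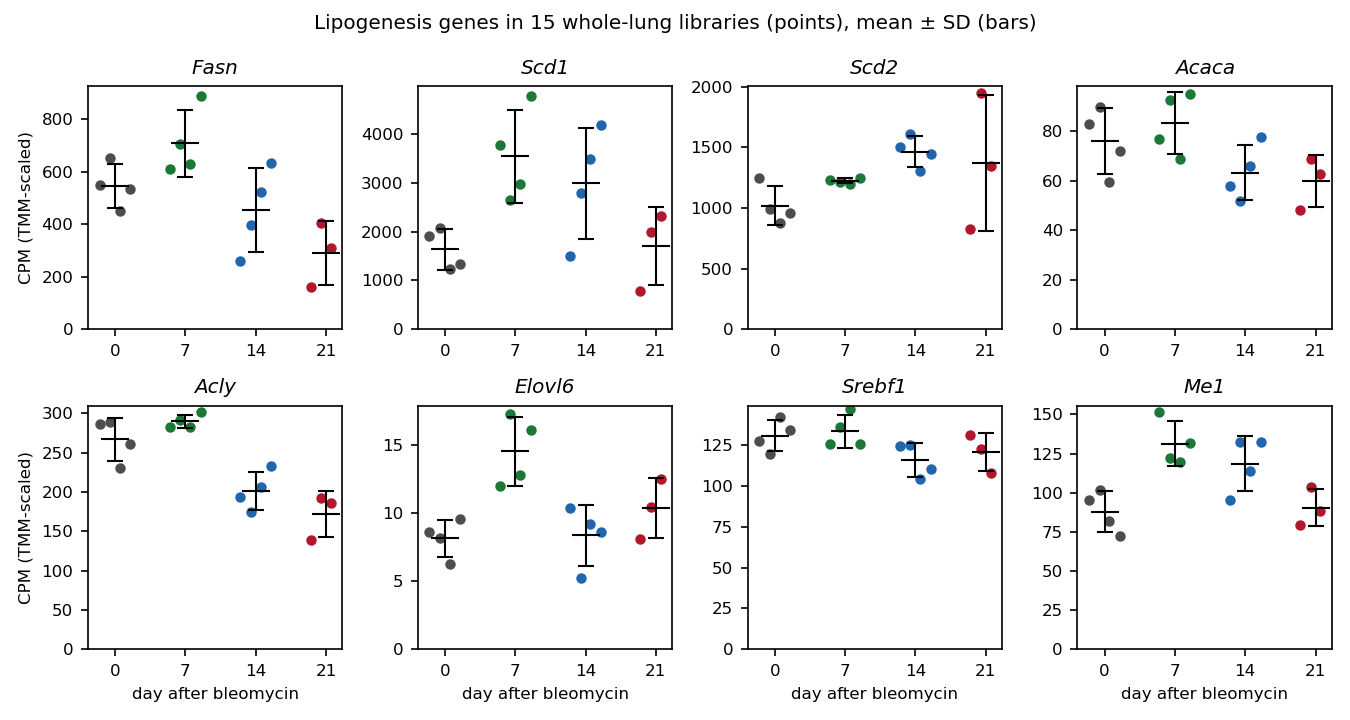
CPM (TMM-scaled, linear axis from 0) of the 8 lipogenesis genes by day after bleomycin, with points for libraries and bars for mean ± SD (n = 4, 4, 4 and 3). At day 7 the 4 Scd1 libraries lay between 2649 and 4781 CPM, above all day 0 libraries, and at day 21 the 3 Fasn libraries lay between 162 and 405 CPM, below all day 0 libraries.

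To follow the pathway over time, each later day was compared with day 0 in edgeR (quasi-likelihood F test), and p was adjusted by Benjamini-Hochberg across all 17457 genes kept. To be called changed, a gene had to pass 0.05 in adjusted p and 1.5 in fold change, the thresholds of the study. At day 7, 16.1% of all genes changed, 8.78% higher and 7.36% lower, and of the 8 members 2 were higher (Scd1 and Elovl6) and 0 lower. At day 14, 23.1% of all genes changed, 12.0% higher and 11.2% lower, and 0 members were called. By unadjusted p under 0.05, 4 of 8 members passed at day 14, beside 43.3% of all genes, and DESeq2 called 1 (Scd1) and limma voom 0. At day 21, 22.5% of all genes changed, 12.4% higher and 10.1% lower, and 0 members were higher and 2 lower (Fasn and Acly). The median log2 fold change of the 8 members was 0.32, -0.07 and -0.04 at days 7, 14 and 21, beside 0.01, 0.02 and 0.02 over all genes tested. The 3 comparisons shared the same day 0 libraries. In whole lung, fewer cells of a type and less RNA per cell cannot be told apart.

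**Figure D2:**
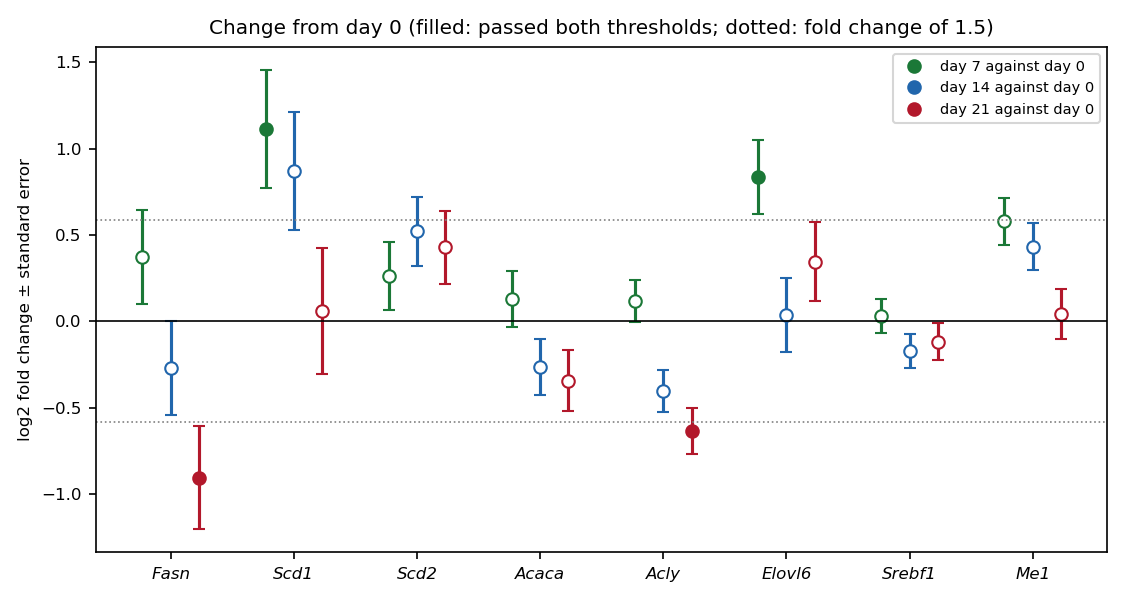
Log2 fold change from day 0 ± standard error for the 8 members at days 7, 14 and 21 (edgeR), with filled points for members past both thresholds and dotted lines at a fold change of 1.5. Scd1 and Elovl6 were filled at day 7 with 1.11 and 0.84, and Fasn and Acly at day 21 with -0.91 and -0.63.

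Srebf1 (ENSMUSG00000020538, mm10 chr11:60199089-60222581, minus strand) encodes SREBP-1, the transcription factor that turns on most enzymes of the pathway. Its 4 day 0 libraries read 128, 120, 142 and 134 CPM, and the day 7 libraries 126, 136, 147 and 126 CPM. The later libraries read 125, 125, 104 and 111 CPM at day 14 and 131, 123 and 108 CPM at day 21. Each later day overlapped with day 0, and all 15 libraries lay between 104 and 147 CPM. The day 14 libraries all lay below those of day 7, by a log2 fold change of -0.20 (SE 0.10, adjusted p = 0.214). The log2 fold changes from day 0 were 0.03 (SE 0.10), -0.17 (SE 0.10) and -0.12 (SE 0.11), with adjusted p of 0.855, 0.194 and 0.439. Its exons shared 109 bases with Rai1 on the opposite strand, and reads from that stretch cannot be assigned to either gene, since the library kit does not mark strand.

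Acly (ENSMUSG00000020917, chr11:100476353-100528000, minus strand) encodes ATP citrate lyase, which makes cytosolic acetyl-CoA from citrate. It read 287, 289, 231 and 261 CPM at day 0 and 283, 292, 283 and 302 CPM at day 7. The levels were 194, 175, 206 and 233 CPM at day 14 and 139, 193 and 185 CPM at day 21. Day 21 lay below day 0 in every library, and at day 14 only replicate 4 reached the lowest day 0 library. At day 21 Acly fell by 0.63 on the log2 scale (SE 0.13, adjusted p = 0.00233), from 267 ± 27.1 CPM (SD, n = 4) to 172 ± 29.4 (SD, n = 3). At day 14 the log2 fold change was -0.40 (SE 0.12, adjusted p = 0.0185), which passed the test and was smaller than the fold threshold. At day 7 it was 0.12 (SE 0.12, adjusted p = 0.506). Without day 21 replicate 1, the day 21 value was -0.53 (adjusted p = 0.00974) and lay under the fold threshold.

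Me1 (ENSMUSG00000032418, chr9:86581371-86695953, minus strand) encodes cytosolic malic enzyme, which supplies NADPH. The 4 day 0 libraries read 95.5, 102, 81.8 and 72.4 CPM and those of day 7 read 152, 122, 119.5 and 132 CPM. Day 14 read 95.5, 132, 114 and 132 CPM, and day 21 read 79.6, 103 and 88.5 CPM. All 4 day 7 libraries and 3 of 4 day 14 libraries lay above day 0, while day 21 overlapped with it. The log2 fold change was 0.58 at day 7 (SE 0.14, adjusted p = 0.00696), a fold change of 1.496 that fell just short of the threshold. It was 0.43 at day 14 (SE 0.14, adjusted p = 0.0237) and 0.04 at day 21 (SE 0.15, adjusted p = 0.852). Without the 3 libraries high in Cfd it was 0.37 at day 7 (adjusted p = 0.201) and 0.24 at day 14 (adjusted p = 0.310), and with the mitochondrial share as a term 0.55 at day 7 (adjusted p = 0.0507).

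Acaca (ENSMUSG00000020532, chr11:84129672-84401651, plus strand) encodes acetyl-CoA carboxylase 1, the enzyme of the committed step to malonyl-CoA. It read 83.0, 89.9, 59.4 and 71.7 CPM at day 0 and 76.7, 92.4, 68.7 and 95.0 CPM at day 7. Levels were 57.9, 51.7, 65.8 and 77.5 CPM at day 14 and 48.2, 68.8 and 62.7 CPM at day 21. Each later day overlapped with day 0. The log2 fold changes were 0.13, -0.27 and -0.34 (SE 0.16, 0.16 and 0.18), with adjusted p of 0.587, 0.224 and 0.157.

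Fasn (ENSMUSG00000025153, chr11:120805846-120824547, minus strand) encodes fatty acid synthase, which builds palmitate. The day 0 libraries read 551, 654, 449 and 535 CPM and the day 7 libraries 612, 704, 629 and 890 CPM. At day 14 they read 260, 398, 524 and 635 CPM and at day 21 162, 405 and 309 CPM. Day 21 lay below day 0 in every library, and the lowest values of days 14 and 21 were both in replicate 1. Fasn fell by 0.91 on the log2 scale at day 21 (SE 0.30, adjusted p = 0.0316), from 547 ± 84.2 CPM (SD, n = 4) to 292 ± 122 (SD, n = 3). The log2 fold change was 0.37 at day 7 (SE 0.27, adjusted p = 0.330) and -0.27 at day 14 (SE 0.27, adjusted p = 0.476). The call at day 21 was lost without day 21 replicate 1 (-0.65, adjusted p = 0.108), without day 21 replicate 3 (adjusted p = 0.0564) and without day 0 replicate 2 (adjusted p = 0.0658). It was also lost without the 3 libraries high in Cfd (-1.08, adjusted p = 0.0518).

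Fasn and Acly were the members that fell at day 21, and the 250 bases before their start sites are shown here to set their promoters side by side (RefSeq start sites, GRCm38.p6, read on the minus strand 5′ to 3′). Capitals mark CCAAT in Fasn and GGGCGG in Acly, in either orientation. The Fasn stretch is chr11:120824548-120824797 and the Acly stretch is chr11:100528001-100528250.
Fasn: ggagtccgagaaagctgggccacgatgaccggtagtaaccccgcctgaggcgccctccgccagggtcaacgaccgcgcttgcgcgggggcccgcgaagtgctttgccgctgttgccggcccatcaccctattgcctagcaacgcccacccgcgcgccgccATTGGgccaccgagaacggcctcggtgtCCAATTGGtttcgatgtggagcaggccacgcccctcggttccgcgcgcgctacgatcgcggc
Acly: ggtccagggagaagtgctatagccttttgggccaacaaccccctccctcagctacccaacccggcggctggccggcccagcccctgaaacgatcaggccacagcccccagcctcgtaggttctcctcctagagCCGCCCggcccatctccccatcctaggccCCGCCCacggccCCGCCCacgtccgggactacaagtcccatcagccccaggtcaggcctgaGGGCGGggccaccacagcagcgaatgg
Fasn held CCAAT 90, 62 and 59 bases before its start, the last 2 overlapping on opposite strands, and no GGGCGG. Acly held GGGCGG 117, 88, 76 and 27 bases before its start. RefSeq promoters were found for 6 of 8 members, with 9 start sites, but not for Scd1 and Scd2. Over the window from 250 bases before to 50 after the start and on both strands, CCAAT stood at 5 and GGGCGG at 4 of the 9 starts, against 37.4% and 35.7% of 32851 promoters. The sterol response element letters TCACNCCAC stood at 0 of 9 (1.24% of all promoters), and so did the E-box CACGTG (7.15%). These are letter matches in this window, not sites of binding.

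Elovl6 (ENSMUSG00000041220, chr3:129532355-129638495, plus strand) encodes the elongase that lengthens palmitate to stearate. It read 8.61, 8.16, 6.29 and 9.54 CPM at day 0 and 12.01, 17.3, 12.8 and 16.1 CPM at day 7. It read 10.4, 5.23, 9.21 and 8.63 CPM at day 14 and 8.10, 10.5 and 12.5 CPM at day 21. All day 7 libraries stood above all day 0 and day 14 libraries, and day 14 straddled day 0. Elovl6 rose at day 7 with a log2 fold change of 0.84 (SE 0.21, adjusted p = 0.0114), from 8.15 ± 1.37 to 14.6 ± 2.55 CPM (SD, n = 4 each). It was 0.04 at day 14 (SE 0.22, adjusted p = 0.910) and 0.35 at day 21 (SE 0.23, adjusted p = 0.279). Leaving out any 1 library of days 0 and 7 kept the day 7 call. Without the 3 libraries high in Cfd the value was 0.70 (adjusted p = 0.148).

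Scd1 (ENSMUSG00000037071, chr19:44394455-44407879, minus strand) encodes stearoyl-CoA desaturase 1, which adds a double bond to stearate and palmitate. Day 0 read 1910, 2069, 1235 and 1327 CPM, and day 7 read 3764, 2649, 2975 and 4781 CPM. Day 14 read 1506, 2798, 3488 and 4174 CPM, and day 21 read 792, 1992 and 2328 CPM. All day 7 libraries stood above all day 0 libraries, as did 3 of 4 at day 14, and the lowest library of days 14 and 21 was again replicate 1. At day 7 Scd1 rose with a log2 fold change of 1.11 (SE 0.34, adjusted p = 0.0271), from 1636 ± 416 to 3542 ± 949 CPM (SD, n = 4 each). It was 0.87 at day 14 (SE 0.34, adjusted p = 0.0604) and 0.06 at day 21 (SE 0.36, adjusted p = 0.920). At day 14 Scd1 passed both thresholds among libraries over 3.5% mitochondrial counts (1.43, adjusted p = 0.00486), where day 0 was replicates 3 and 4 alone, its lowest Scd1 libraries and both high in Cfd, and by DESeq2 (0.85, adjusted p = 0.0278), and read 0.56 (adjusted p = 0.356) without the 3 libraries high in Cfd.

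The day 7 call of Scd1 depended on several libraries. Scd1 was highest in day 7 replicate 4 and lowest at day 0 in replicates 3 and 4, the 3 libraries high in Cfd, and without them the log2 fold change was 0.61 (adjusted p = 0.418). Left out singly, day 0 replicate 3, day 0 replicate 4, day 7 replicate 1 or day 7 replicate 4 each ended the call, with adjusted p of 0.0831, 0.0850, 0.0676 and 0.0742. Day 7 libraries were also all low in mitochondrial counts. Fitted with that share as a term, the value was 1.003 (adjusted p = 0.154), and among libraries under 2.5% alone, where day 0 was replicates 1 and 2, it was 0.82 (adjusted p = 0.0348). In the same fits Elovl6 had 0.62 (adjusted p = 0.130) and 0.78 (adjusted p = 0.0244).

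Scd2 (ENSMUSG00000025203, chr19:44293674-44306864, plus strand) encodes a second desaturase of the same activity and lies in a cluster with Scd3, Scd4 and Scd1. It read 1247, 992, 878 and 961 CPM at day 0 and 1233, 1215, 1201 and 1251 CPM at day 7. It read 1499, 1610, 1301 and 1444 CPM at day 14 and 827, 1949 and 1346 CPM at day 21. Day 14 lay above day 0 in all 4 libraries, while day 21 replicate 1 was below and replicate 2 above every other library. The log2 fold changes were 0.27, 0.52 and 0.43 (SE 0.20, 0.20 and 0.21), with adjusted p of 0.343, 0.0536 and 0.140. Without day 21 replicate 1 the day 21 value was 0.66 (adjusted p = 0.0135), past both thresholds. Reads with several alignments had been left out by the authors, so any read that fits more than 1 desaturase gene is missing from both Scd1 and Scd2.

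The desaturases were also compared with each other within each library, as the log2 ratio of Scd1 to Scd2 per kilobase. Day 0 libraries read 0.77, 1.22, 0.65 and 0.63, and day 7 libraries read 1.77, 1.28, 1.47 and 2.09. Day 14 libraries read 0.17, 0.96, 1.58 and 1.69, and day 21 libraries read 0.10, 0.19 and 0.95. Scd1 exceeded Scd2 in all 15 libraries, and all day 7 ratios lay above all ratios of days 0 and 21. The ratio was higher at day 7 than at day 0 by 0.84 (SE 0.22, exact two-sided permutation test p = 0.0286, adjusted over 6 pairs of days 0.0857). It was lower at day 21 than at day 7, with a difference of -1.24 (SE 0.32, exact permutation p = 0.0286, adjusted 0.0857). The raw value is the smallest that these group sizes allow, and the other 4 pairs had exact permutation p from 0.200 to 0.486.

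**Figure D3:**
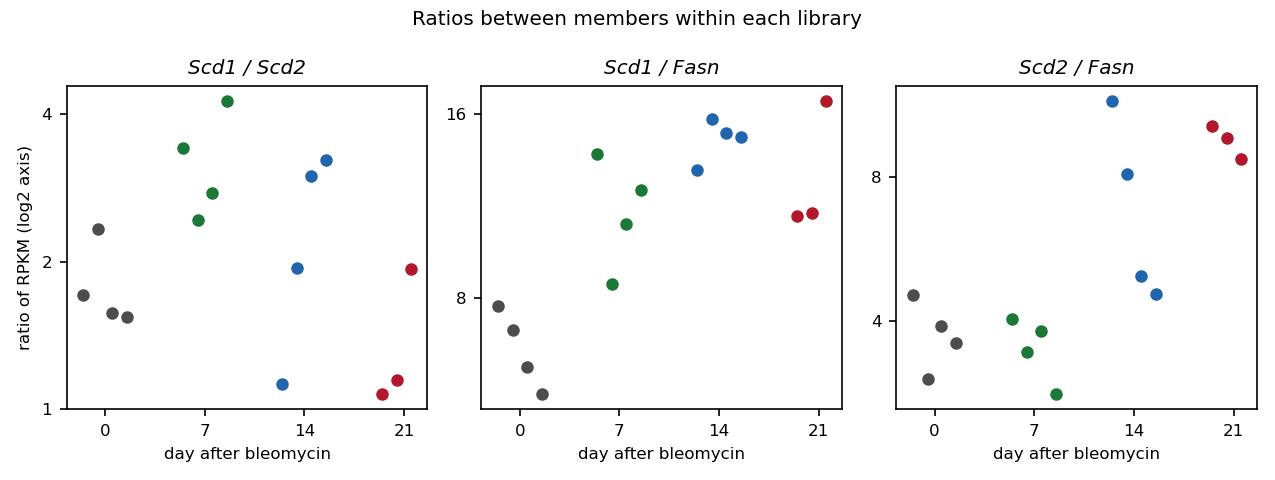
Ratios of RPKM between members within each library (log2 axes), by day after bleomycin, with 1 point per library. Scd1 per Scd2 was 2.44 to 4.27 at day 7 and 1.54 to 2.33 at day 0. Scd1 per Fasn was 5.55 to 7.75 at day 0 and 8.42 or more in all later libraries.

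The later days were also compared with each other. Between day 7 and day 14, Elovl6 fell by 0.80 on the log2 scale (SE 0.21, adjusted p = 0.0362), which made 1 of 8 members lower and 0 higher, where 6.00% of all genes changed, 2.77% higher and 3.23% lower. Acly passed the test with -0.52 (SE 0.12, adjusted p = 0.0218) and was under the fold threshold. The Elovl6 call was lost in a fit with mitochondrial share as a term (-0.55, adjusted p = 0.308), with the replicate number as a block (adjusted p = 0.0502), without the 3 libraries high in Cfd (adjusted p = 0.0982) and without each of 7 single libraries, which were the 4 of day 7 and day 14 replicates 2, 3 and 4.

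Between day 7 and day 21, Fasn fell by 1.28 (SE 0.30, adjusted p = 0.0149) and Acly by 0.75 (SE 0.13, adjusted p = 0.00395) on the log2 scale, so 2 of 8 members were lower and 0 higher, where 9.54% of all genes changed, 5.20% higher and 4.34% lower. Me1 had -0.54 (SE 0.15, adjusted p = 0.0292), under the fold threshold, and Scd1 had -1.06 (SE 0.37, adjusted p = 0.0729), which DESeq2 called at -1.05 (adjusted p = 0.0230). In the fit with mitochondrial share as a term, Fasn read -1.30 (adjusted p = 0.0533) and Acly -0.63 (adjusted p = 0.0252). Without the 3 libraries high in Cfd, Fasn read -1.14 (adjusted p = 0.0526) and Acly -0.72 (adjusted p = 0.0154). Between day 14 and day 21 edgeR called 0 members and 0.00% of all genes. At an unadjusted p under 0.05, 3 of 8 members (Fasn, Scd1 and Me1, all lower) and 1714 of all genes (9.82%) passed, and DESeq2 and limma voom also called 0 members.

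The other genes of the pathway were taken in 3 lists. Of 42 genes of fatty acid and triglyceride synthesis, 36 passed the filter, of which 6 rose and 5 fell at day 7, 3 rose and 7 fell at day 14, and 3 rose and 6 fell at day 21. The genes that rose were 16.7%, 8.33% and 8.33% of those tested, beside 8.78%, 12.0% and 12.4% of all genes, and those that fell were 13.9%, 19.4% and 16.7%, beside 7.36%, 11.2% and 10.1%. Their median log2 fold changes were 0.11, 0.01 and -0.17. Among them were genes of chain elongation and desaturation that rose: Hacd1, a dehydratase of the elongation cycle, from 7.64 ± 1.02 CPM at day 0 to 14.9 ± 1.498 at day 7 (SD, n = 4; log2 fold change 0.96, adjusted p = 0.000890), and Fads2, a desaturase of polyunsaturated fatty acids, with 0.85 at day 7 (SE 0.15, adjusted p = 0.00136). Hacd1 was also higher at days 14 and 21 with 1.13 and 1.01, and Hacd4, of the same family, with 0.89 and 0.98. Other members of that family moved otherwise. Hacd3, the most abundant of them at 142 CPM at day 0, had -0.58 at day 14 (adjusted p = 0.00337, under the fold threshold) and fell by 0.84 on the log2 scale at day 21 (SE 0.14, adjusted p = 0.000526), and Hacd2 did not pass the test at any day. At an adjusted p under 0.05 but under the fold threshold, 3 genes of the list were higher and 2 lower at day 14. At day 21, 2 were higher and 4 lower in this way. Fads1, another desaturase, was among the lower at both days (-0.27 and -0.33, adjusted p = 0.0482 and 0.0296). Elovl5 and Tecr, of chain elongation, were among them at day 21 (-0.37 and -0.40). Of all genes, 5.98% were higher and 4.02% lower in this way at day 14, and 4.13% and 3.21% at day 21.

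Other genes of this list fell. Acsl1, which activates long-chain fatty acids to acyl-CoA, read 91.8 ± 6.50 CPM at day 0 and 39.4 ± 4.76 at day 14 (SD, n = 4 each), with log2 fold changes of -0.63, -1.22 and -1.05 at days 7, 14 and 21. Dgat2, which makes triglyceride from diglyceride, had -0.87, -1.48 and -1.36. Lpin1, a phosphatidate phosphatase, had -0.69, -1.08 and -0.89 at days 7, 14 and 21. Gpam, which starts glycerolipid synthesis, had -0.90 and -1.01 at days 14 and 21. Scd4, a further desaturase, had -1.30 at day 14 at a mean of 0.924 CPM, from 2.29 CPM at day 0. All of these passed edgeR's test with adjusted p between 4.62e-06 and 0.0152. Acsl4, of the same family as Acsl1, rose at day 7 from 184 to 302 CPM (0.72, SE 0.16, adjusted p = 0.00547). Acsl6, another acyl-CoA synthetase, had 2 counts over the 4 day 0 libraries together, against 63 counts over 4 libraries at day 7, 122 over 4 at day 14 and 191 over 3 at day 21. Single libraries held 6 to 29 counts at day 7, 4 to 84 at day 14 and 36 to 99 at day 21.

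Of 15 genes of carbon and NADPH supply, 14 passed the filter, with 1 higher and 2 lower at days 7 and 14 and 3 lower at day 21. The shares were 7.14% higher and 14.3% lower at days 7 and 14 and 21.4% lower at day 21, read against the same shares of all genes. A further 7, 4 and 3 genes were higher at days 7, 14 and 21 at an adjusted p under 0.05 without reaching the fold threshold, where 5.45%, 5.98% and 4.13% of all genes were, and 1, 1 and 0 were lower in this way, where 3.41%, 4.02% and 3.21% were. Among the 7 of day 7 were Cs, citrate synthase (0.58, SE 0.09, adjusted p = 0.000573), Me2, a mitochondrial malic enzyme (0.57), and G6pdx and Pgd of the pentose phosphate pathway (0.54 and 0.55). Pcx, which makes oxaloacetate from pyruvate, rose at day 7 (0.68, adjusted p = 0.0258), and Pgd passed both thresholds at day 14 (0.72, adjusted p = 0.000730). Acss1 and Acss2, which make acetyl-CoA from acetate in mitochondria and cytosol, fell at day 21 by 1.98 and 1.57 on the log2 scale (adjusted p = 2.29e-05 and 1.56e-05). Acss1 read 79.6 ± 5.20 CPM at day 0 (SD, n = 4) and 20.2 ± 6.61 at day 21 (SD, n = 3). Acss1 had -0.90 and -1.76 at days 7 and 14, Acss2 had -1.4999 at day 14, and Idh2, mitochondrial isocitrate dehydrogenase, had -0.73 at day 21. Me3, another mitochondrial malic enzyme, had -1.05 at day 7 at a mean of 1.28 CPM. The list medians were 0.47, 0.27 and 0.15.

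Of 27 regulators of lipogenesis, all passed the filter, with 1, 3 and 3 lower at days 7, 14 and 21. These are 3.70%, 11.1% and 11.1% of the list, beside 7.36%, 11.2% and 10.1% of all genes. The others did not pass both thresholds. Mlxipl, the gene of the carbohydrate response factor ChREBP, fell at all 3 days with log2 fold changes of -1.71, -2.33 and -3.67, from 5.37 ± 3.43 CPM at day 0 (SD, n = 4) to 0.414 ± 0.017 at day 21 (SD, n = 3). Mid1ip1, an activator of acetyl-CoA carboxylase, fell at days 14 and 21 by 0.98 and 1.496 on the log2 scale. Thrsp, its paralog, had -1.90 at day 14 from 3.93 CPM, and Prkaa2, a catalytic subunit of the AMP-activated kinase, had -0.71 at day 21. Prkaa1, the other catalytic subunit of that kinase, averaged 64.0 CPM at day 21, against 20.1 CPM for Prkaa2. It did not pass the test there (0.14, adjusted p = 0.385). Srebf2, the sterol counterpart of Srebf1, passed the test and not the fold threshold, with -0.36 and -0.42 at days 14 and 21. The list medians were -0.09, -0.08 and -0.08.

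**Figure D4:**
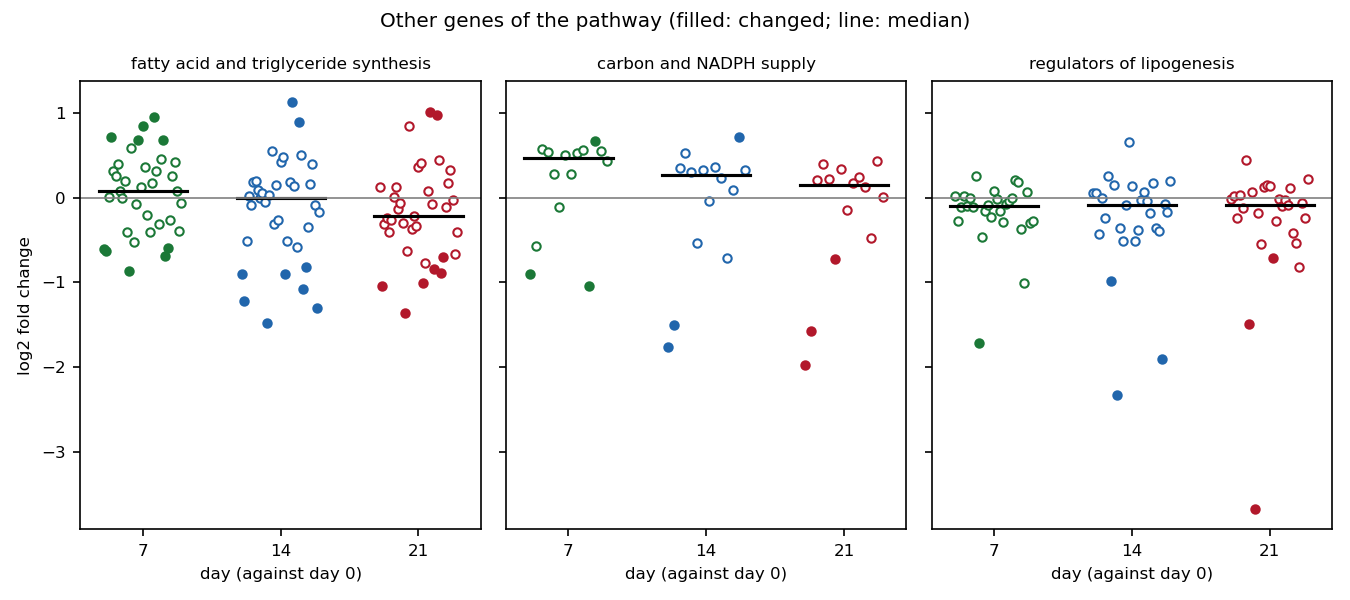
Log2 fold changes from day 0 of the other pathway genes in 3 lists, by day, with filled points for changed genes and lines for the median of the genes drawn (Acsl6, with 2 counts at day 0, is not drawn). Filled points lay on both sides of 0 in the synthesis list and numbered 1, 3 and 3 in the regulator list, shares close to or under those of all genes, with Mlxipl at -3.67 at day 21.

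Markers of cells that could carry lipogenesis were followed over the same days. Of 15 alveolar type 2 genes, 0 passed both thresholds at day 7 in edgeR, where 2 were lower at an unadjusted p under 0.05, which 38.2% of all genes passed in either direction, and DESeq2 called 1 lower and limma voom 0. At day 14, 1 rose and 7 fell, and at day 21, 14 fell. The genes that fell were 46.7% and 93.3% of the list at days 14 and 21, beside 11.2% and 10.1% of all genes, and the median log2 fold change of the list was -0.01, -0.66 and -1.36 at days 7, 14 and 21. Their summed level was 31294 to 41690 CPM at day 0, 21941 to 30811 at day 7, 8822 to 24718 at day 14 and 5750 to 11916 at day 21. Sftpc had log2 fold changes of -0.48, -0.99 and -2.39 over the 3 days, Sftpb 0.05, -0.66 and -1.36, and Sftpa1 -0.69, -1.56 and -2.48. Within days 14 and 21, replicate 1 was lowest in the summed list, with 8822 and 5750 CPM, as it was in Fasn, Scd1 and Me1. At day 14 Acly, Acaca and Elovl6 were lowest in replicate 2 instead, and Scd2 and Srebf1 in replicate 3. At day 21 replicate 1 was lowest in every member but Srebf1, where it was highest. The part of these markers in the decline of Fasn and Acly was not tested.

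Of 14 adipocyte genes, 11 passed the filter, with 2, 8 and 5 lower at days 7, 14 and 21 in edgeR, and the others did not pass. With limma voom 2, 5 and 2 were lower, and with DESeq2 2, 9 and 6. The edgeR counts are 18.2%, 72.7% and 45.5% of the genes tested, beside 7.36%, 11.2% and 10.1% of all genes. The day 0 level of some of these genes was uneven. Cfd read 0.583 CPM in day 0 replicate 1, against 10.5, 30.4 and 26.8 CPM in replicates 2, 3 and 4. Adipoq read 0.129 CPM in replicate 1, against 1.21, 1.33 and 2.29 CPM, and had 2 counts over all day 14 libraries. Their summed level was 82.5 to 135 CPM at day 0, 44.8 to 217 at day 7, 28.9 to 52.5 at day 14 and 41.6 to 53.7 at day 21. Adipoq, the adiponectin gene, lay between 0 and 5.41 CPM, with its highest value in day 7 replicate 4, where Cfd read 71.2 CPM and Scd1, Fasn, Acaca and Acly had their highest values. Cidec, a lipid droplet gene, averaged 18.2 CPM at day 0 (17.1 to 19.3 CPM) and 0.985 at day 21. Lipe, hormone-sensitive lipase, averaged 45.5 and 34.0 CPM and did not pass the test at any day (-0.42 at day 21, adjusted p = 0.276). Myh6, a heart muscle gene, read 296 CPM in day 7 replicate 4 and 321 CPM in day 21 replicate 1, and the 7 cardiac genes summed to 646 and 758 CPM there. Day 0 replicates 3 and 4, the others high in Cfd, summed to 284 and 193 CPM with Myh6 at 82.3 and 73.4 CPM, and the remaining libraries to 18.8 to 57.8 CPM with Myh6 at 7.498 CPM or less. Actc1, cardiac actin, and Tnnt2, a cardiac troponin, averaged 41.0 and 17.6 CPM at day 0, 52.0 and 27.9 at day 7, 13.5 and 9.07 at day 14, and 47.1 and 66.3 at day 21. Of the 6 cardiac genes tested, Myh6 passed at day 14 (adjusted p = 0.0486), against a day 0 mean that rests on replicates 3 and 4, and limma voom called 0. The others did not pass at any day.

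Of 9 lipofibroblast genes, 1 rose and 2 fell at day 7, 1 rose and 6 fell at day 14, and 6 fell at day 21. The genes that fell were 22.2%, 66.7% and 66.7% of the list, beside 7.36%, 11.2% and 10.1% of all genes. The gene that rose was Plin2, of the lipid droplet coat, from 139 CPM at day 0 to 208 at day 7 (0.59, adjusted p = 0.0103) and 211 at day 14 (0.61, adjusted p = 0.00554), and DESeq2 did not call it at day 7. It makes up 11.1% of the list, beside 8.78% and 12.0% of all genes. Gpc3 (0.04, 0.20 and 0.00) and Pdgfra (0.26, -0.23 and 0.20) did not pass the test at any day. The summed level of the list went from 3756 to 4921 CPM at day 0 to 1284 to 2020 CPM at day 21, with ranges of 2428 to 2962 at day 7 and 1435 to 1952 at day 14. Inmt, a methyltransferase gene of these cells, averaged 1935 CPM at day 0 and 187 at day 21, Npnt 790 and 398, and Ces1d 872 and 212. Of 10 alveolar macrophage genes, 4 fell at day 7, 2 rose and 3 fell at day 14, and 1 rose and 4 fell at day 21, with sums of 976 to 1345 CPM at day 0, 767 to 1551 at day 7, 1236 to 3802 at day 14 and 1534 to 3143 at day 21. The shares that fell were 40%, 30% and 40%, beside the same shares of all genes, and those that rose at days 14 and 21 were 20% and 10%, beside 12.0% and 12.4%. Mrc1, the mannose receptor, rose at days 14 and 21 (1.75 and 2.07), while Chil3 (1.05 and 1.07) and Abcg1 (0.02 and -0.15) did not pass the test. The 4 genes that fell at day 21 were Krt79, a keratin gene (-6.31, from 34.9 to 0.426 CPM), Fabp1, a fatty acid binding protein gene (-5.98, from 7.92 to 0.117 CPM), Ear1, a ribonuclease gene with close paralogs (-3.23), and Siglecf, a surface lectin gene (-1.54, from 16.2 to 5.57 CPM). The median log2 fold change of the list was -0.32, -0.17 and -0.40 at days 7, 14 and 21. The part of these cell types in the members' values was not tested.

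**Figure D5:**
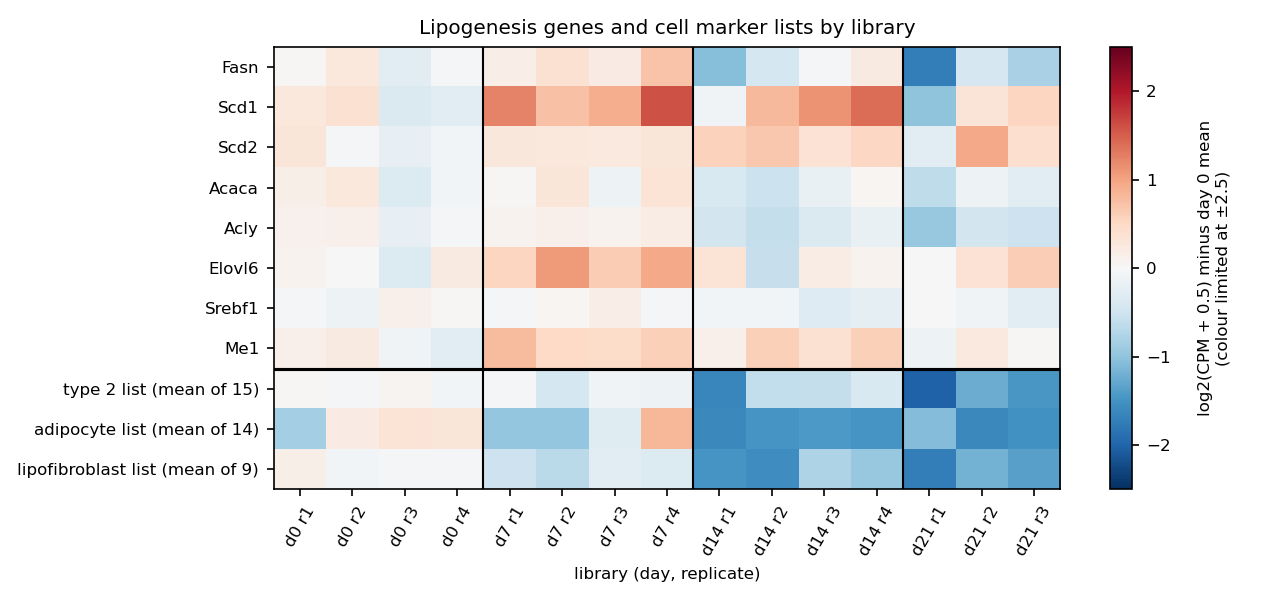
Log2(CPM + 0.5) minus the day 0 mean for the 8 members and, below the line, the mean over 3 cell marker lists, by library (columns, by day and replicate, colour limited at ±2.5). Scd1 was red in all day 7 libraries, while Fasn and the type 2 list were at their bluest in day 21 replicate 1, where Fasn read 162 CPM.

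The genes whose pattern came closest to a changed member were ranked by the root mean square difference of log2 CPM, each centred on its own day 0 mean, over 15 libraries and 12237 genes of at least 5 CPM. For Fasn they were Lrrk2 (0.17), Cxcl15 (0.21) and Abca3 (0.22), and the last 2 also stood in the type 2 list. For Acly they were Lonp2 (0.10), Pcca (0.11) and Oat (0.11). Elovl6 had Vcl (0.21) and Ascc3 (0.22), and Scd1 had Ifit1 (0.30), Slc5a1 (0.31) and Nnat (0.33). The libraries share depth scaling and day, so these values describe likeness and carry no test.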

How the data were processed

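Polyadenylated RNA from whole lungs had been sequenced in 15 libraries (NEBNext Ultra kit, which does not mark strand). The authors trimmed reads with TrimGalore, aligned them to mm10 with HISAT2 2.1.0, dropped multi-mapped reads, and deposited raw counts per Ensembl gene from HTSeq 0.6.0, with no normalization. The submitters' processing notes also name DESeq2 1.40.2. Annotation release and strand setting are not given in the sources used here. Symbols, coordinates and exon lengths came from GENCODE M21 (same build), which matched 33267 of 33340 identifiers.

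Groups came from the sample titles, which give more replicates at days 0, 7 and 14 than the series text does. Counts were tested with edgeR 4.0.16 in R 4.3.3 (filterByExpr on day, TMM, glmQLFit and glmQLFTest, all libraries in 1 fit with day as the only term), which kept 17457 genes, and adjusted over all of them. Changed genes passed 0.05 in adjusted p and 1.5 in fold change. Values are TMM-scaled CPM, and RPKM divides them by exon length. The Scd1 to Scd2 ratio was compared between days by exact permutation of libraries (two-sided). The scripts were tested on simulated data.

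The members and lists were chosen with earlier results of these data known. The genes named are the 8 members, up to 3 changed genes with the largest rise and fall in each pathway list and day, the 3 genes with the highest mean CPM in each cell marker list, and the 3 genes most like each changed member, of which 1 for Elovl6 is not reported here. Srebf2, Adipoq, Hacd2, Hacd3, Cs, Me2, G6pdx, Acsl4, Krt79, Fabp1, Ear1, Siglecf, Plin2, Gpc3, Pdgfra, the day 7 value of Pgd and the counts of Acsl6 were added after their values were seen. So were Prkaa1, Fads1, Elovl5, Tecr, the values of Lpin1 at days 14 and 21 and that of Gpam at day 14. Alternatives were other scalings and filters, 2 groups alone, the replicate block, limma voom 3.58.1, DESeq2 1.42.0, glmTreat, the mitochondrial share, and leaving out each library. Leaving out libraries high in Cfd, or replicate 1 of days 14 and 21 together, was added after the data were seen.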

Additional observations from a re-analysis of the deposited data

How the results depend on the processing

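The count of changed members depended on the settings. With glmTreat, which tests for a fold change above 1.5, it was 0 at every comparison, and the share of all genes called was 4.03%, 10.1% and 10.0% at days 7, 14 and 21 against day 0 and at most 1.01% between later days. At day 7 against day 0 the count of 2 became 0 in a fit with the mitochondrial share as a term and 0 without the 3 libraries high in Cfd, where the share of all genes went from 16.1% to 7.27% and 6.83%, and it became 3 with limma voom or no fold threshold, and 1 to 3 with each library left out in turn. At day 14 against day 0 the count of 0 became 1 with no filter, 2 with no fold threshold, 3 among libraries over 3.5% mitochondrial counts (Scd1, Scd2 and Me1, against day 0 replicates 3 and 4 alone, both high in Cfd), 1 with DESeq2, 1 without replicate 1 of days 14 and 21, and 0 to 1 with each library left out. At day 21 against day 0 the count of 2 became 1 without the libraries high in Cfd (22.5% to 18.1% of all genes) and 1 to 2 with each library left out. Without day 21 replicate 1 the 1 gene was Scd2, which was higher (0.66, adjusted p = 0.0135), while Fasn (-0.65, adjusted p = 0.108) and Acly (-0.53, adjusted p = 0.00974, under the fold threshold) lost their calls. From day 7 to day 14 the count of 1 became 0 with the 2 groups alone, 0 with the mitochondrial term and 0 without the libraries high in Cfd (6.00% to 1.25% and 2.44% of all genes), 2 with no fold threshold, and 0 to 1 with each library left out. Without day 14 replicate 4 the 1 gene was Acly (-0.60, adjusted p = 0.0195), and Elovl6 lost its call (-0.81, adjusted p = 0.0595). From day 7 to day 21 the count of 2 became 1 with the mitochondrial term and 1 without the libraries high in Cfd (9.54% to 5.40% and 6.70% of all genes), and 3 with DESeq2 or no filter (Scd1 added), 3 with no fold threshold (Me1 added) and 2 to 3 with each library left out. Among the lists, limma voom and DESeq2 each called 8 in place of 6 synthesis genes lower at day 21. For the same list DESeq2 called 8 in place of 7 lower at day 14, and limma voom 4 in place of 5 at day 7. Of the carbon supply genes, limma voom called 1 and DESeq2 3 in place of 2 lower at day 7. DESeq2 called 8 in place of 7 type 2 genes lower at day 14. For macrophage genes limma voom called 1 in place of 2 higher at day 14, and it and DESeq2 each called 1 in place of 0 higher at day 7.

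Same-numbered libraries showed no steady pairing across days, with correlations of their deviations between -0.24 and 0.40. The best match was the own number for 2 of 4 libraries at day 7 against day 0 and 0 of 4 at day 14 against day 0. It was so for 2 of 4 at day 14 against day 7 and 2 of 3 at day 21 against day 14. So few pairs do not settle whether the numbers mark a pairing. With the replicate number as a block the count became 3 at day 7 against day 0, since Me1 passed the fold threshold (0.59), and 0 from day 7 to day 14, and was otherwise 0 or 2 as before. The Scd1 to Scd2 ratio with the block was 0.84 (exact permutation p = 0.125) at day 7 against day 0 and -1.09 (p = 0.250) at day 21 against day 7, the smallest p the pairs allow. With each library left out these ranged from 0.69 to 0.97 and from -1.51 to -1.08.

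Over 48 single-gene results and 1000 alternatives, 908 kept direction and side of the thresholds, 34 lost the call, 26 gained it and 32 changed sign, none of the last with a call in either fit. The sign changes at day 7 against day 0 were Acaca (-0.0706 among libraries under 2.5% mitochondrial counts, -0.17 without the libraries high in Cfd), Acly (-0.0066 and -0.0531) and Srebf1 (-0.00578 at a mean of at least 1 CPM, -0.0373 to 0.0576 with each library left out). At day 14 against day 0 they were Fasn (0.0645 among libraries over 3.5%) and Elovl6 (-0.0567 among those, -0.0297 without the libraries high in Cfd, -0.12 without replicate 1 of days 14 and 21, -0.10 to 0.19 with each left out). At day 21 against day 0 they were Scd1 (-0.0545 with limma voom, -0.26 without the libraries high in Cfd, -0.27 to 0.37 with each left out) and Me1 (-0.16 and, with each left out, -0.10 to 0.0945). From day 14 to 21, without replicate 1 of both days, Scd2 read 0.18 and Acaca 0.0167, and with each library left out Scd2 ranged from -0.44 to 0.16, Acaca from -0.20 to 0.0486 and Srebf1 from -0.0189 to 0.11. From day 7 to 21 Scd2 ranged from -0.19 to 0.41. The cause of these shifts was not tested. Other scalings moved the median of all genes by at most 0.03 on the log2 scale.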

Other observations

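Set against Fasn within the same library, the desaturase levels per kilobase differed by day. This ratio was looked at after the values were seen and carries no test. Scd1 per Fasn was 7.75, 7.08, 6.16 and 5.55 in the day 0 libraries and 13.8, 8.42, 10.6 and 12.02 at day 7. It was 12.9, 15.7, 14.9 and 14.7 at day 14 and 10.9, 11.01 and 16.9 at day 21. All 11 libraries after bleomycin lay above all 4 of day 0. Scd2 per Fasn was 3.04 to 4.53 at day 0 and 2.82 to 4.04 at day 7, which overlapped, and 4.56 to 11.54 at day 14 and 8.73 to 10.2 at day 21, which lay above both. The highest Scd2 per Fasn, 11.54, was in day 14 replicate 1, the library of that day with the lowest Fasn.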
